A study of Mus musculus with 16 samples.

Results

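The comparison described here sets all colonic mucosa samples from mice given dinitrobenzene sulfonic acid (DNBS) into the rectum against samples from healthy mice. It takes 12 of the 16 samples as the treated side and the other 4 as the healthy side, and covers every gene of an inflammation panel read by real-time quantitative PCR. The treated side consists of 3 arms of 4 samples, DNBS with oral PBS (DNBS samples 2, 3, 4 and 5), DNBS with the oral treatment labelled CEC (DNBS_CEC samples 1, 2, 6 and 8) and DNBS with the oral treatment labelled Nissle (DNBS_Nissle samples 1, 4, 5 and 7). The healthy mice received PBS by both routes (Healthy samples 3, 4, 5 and 6). The members were chosen by treatment label alone, and the value of the treated side is the mean of the 3 arm means, so that each arm counts equally. The labels do not spell out CEC, and they give no strain, age or time after the hapten. The series text speaks of pooling RNA from the mice while each sample carries its own number, so a sample may stand for 1 mouse or for several, and the p-values measure only the spread between these samples, which may be technical. In 2 of the 3 arms the mice also received an oral treatment that the healthy mice did not, and their part in the pooled difference cannot be told apart from the hapten's within those arms.

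DNBS is a hapten. It binds proteins of the colonic wall, which then provoke an immune response, and mice given it into the rectum develop an acute colitis with many neutrophils in the mucosa. Neutrophils carry S100a8 and S100a9 in bulk; their proteins pair as calprotectin, which binds metal ions that microbes need and is measured in stool as a marker of gut inflammation. They are drawn into the mucosa by chemokines of the CXC family such as Cxcl1, Cxcl2, Cxcl3 and Cxcl5, whose genes epithelial, stromal and myeloid cells switch on in response to cytokines such as interleukin 1 beta.

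Levels are given as −ΔCt, that is, a gene's cycle threshold (Ct) subtracted from the mean Ct of 11 reference genes. This is a log2 scale on which 1 unit is about a doubling of RNA and a higher, less negative value means more RNA relative to the reference genes. A Ct above 28 counted as not detected and was set to 28, which corresponds to a mean level of −9.04 in healthy samples and −9.48 in DNBS samples. Of 648 assays, 535 ± 5.0 were detected in healthy samples and 555.75 ± 5.5 in DNBS samples (mean ± SD, n = 4 and n = 12), and the ranges of 528 to 539 and 548 to 564 did not overlap (two-sided exact permutation test, p = 0.000549, the smallest possible). The reference genes themselves had a mean Ct lower by 0.44 cycles in DNBS samples (exact permutation p = 0.0143), and the median Ct of all detected assays was lower by 0.44 as well (0.0121); their part in the differences between genes was not tested. Keratin 8 (Krt8), an epithelial marker, was among the genes read in all 16 samples. Healthy sample 3 and DNBS_Nissle sample 1 stood apart, with 57 and 61 deposited values identical to the average of that group's remaining samples, against at most 12 elsewhere. Such filled-in values were treated as missing.

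Of 584 genes on the panel, 469 were detected in enough samples to be tested, and 4 of them (0.853%) passed a limma adjusted p of 0.05. All 4 were higher after DNBS, and none was lower. They were the calprotectin subunits S100a8 and S100a9, the inducible nitric oxide synthase Nos2 and the neutrophil chemokine Cxcl5. An unadjusted limma p under 0.05 was reached by 72 genes (15.4%), of which 36 (7.68%) were higher and 36 (7.68%) lower, so the large rises of a few genes stood beside an even split of smaller differences. The median difference over all tested genes was −0.09 on the log2 scale, with 198 genes higher and 271 lower. The 95% interval of the difference reached 0.77 to either side in the median gene, which limits what could be seen to large changes. The median of all genes moved from −0.09 to −0.24 with the 3 most stable reference genes and to 0.03 with all 13 reference genes, so small differences of either sign depend on the reference.

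**Figure D1:**
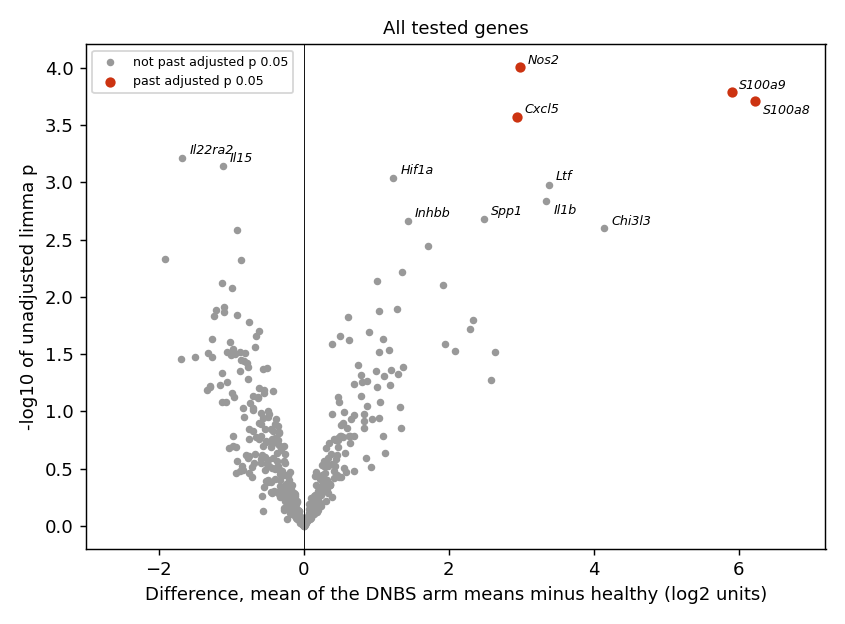
Difference between the mean of the 3 DNBS arm means and the healthy mean for each of the 469 tested genes (x axis, log2 units) against −log10 of its unadjusted limma p (y axis). Red points are the 4 genes that passed the adjusted threshold; S100a8 and S100a9 lie near 6 on the x axis, and Il22ra2 and Il15 are the uppermost grey points on the left.

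S100a8 had the largest difference on the panel. Its levels were −7.92, −5.60, −7.24 and −4.47 in the healthy samples, and in the 12 DNBS samples they ran from −5.31 through a median of 0.79 to 4.28. Of the DNBS samples, 10 lay above every healthy sample, and the other 2 were DNBS_CEC sample 6 at −4.48 and DNBS_CEC sample 8 at −5.31. S100a8 rose by 6.23 ± 1.28 on the log2 scale (± SE), or 75.3-fold (limma adjusted p = 0.0303, 95% interval 3.51 to 8.95). S100a9, its partner in calprotectin, had levels of −7.27, −5.46, −7.87 and −5.48 in healthy samples and of −5.82 to 3.98 with a median of −0.04 after DNBS. It rose by 5.91 ± 1.19, or 60.1-fold (limma adjusted p = 0.0303), and only DNBS_CEC sample 8 fell within the healthy range. In both genes the highest sample was DNBS sample 3 and the lowest of the DNBS samples was DNBS_CEC sample 8. The 2 genes lie close together on mouse chromosome 3 in opposite orientation, S100a8 at chr3:90669071-90670034 on the plus strand and S100a9 at chr3:90692630-90695721 on the minus strand of GRCm38.p6.

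Promoters were looked up for the 4 genes that passed, and those of Nos2 and Cxcl5 were not found. For S100a8 and S100a9 the 250 bases before the annotated start of each, from RefSeq on GRCm38.p6, are shown here 5′ to 3′ along the gene. Capitals mark the motif matches found: a TATA box (TATAAA) at bases −30 to −25 of S100a8, and at bases −131 to −123 of S100a9 a match on the opposite strand to TTNNGNAAT, letters that the C/EBP family of myeloid factors can bind.
S100a8: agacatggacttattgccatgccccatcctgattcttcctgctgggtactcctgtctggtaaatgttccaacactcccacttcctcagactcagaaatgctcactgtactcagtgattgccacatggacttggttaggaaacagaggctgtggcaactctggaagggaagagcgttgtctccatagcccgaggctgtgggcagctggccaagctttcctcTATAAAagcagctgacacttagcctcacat
S100a9: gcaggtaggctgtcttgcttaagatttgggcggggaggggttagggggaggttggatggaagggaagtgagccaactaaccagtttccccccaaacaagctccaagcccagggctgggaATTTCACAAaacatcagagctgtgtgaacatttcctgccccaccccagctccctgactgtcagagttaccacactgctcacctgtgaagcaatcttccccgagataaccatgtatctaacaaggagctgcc
The first window is chr3:90668821-90669070 (plus strand) and the second chr3:90695722-90695971 (minus strand). Among 32851 RefSeq promoters of the same length and searched on both strands, 12.4% held TATAAA and 10.2% held TTNNGNAAT. The letters TTCNNNGAA, for STAT factors (held by 7.02% of promoters), and the NF-kB consensus (7.25%) were found in neither window. These matches describe letters only and were not set against the measured levels.

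Nos2 makes nitric oxide in activated macrophages and epithelium. Its levels were −6.55, −6.35, −4.75 and −5.57 in healthy samples and ran from −5.14 through −2.60 to −1.17 in the 12 DNBS samples. It rose by 2.99 ± 0.57 on the log2 scale, or 7.95-fold (limma adjusted p = 0.0303), with DNBS_CEC sample 6 as the single DNBS sample within the healthy range. Cxcl5 attracts neutrophils through the receptor Cxcr2. Its levels were −4.48, −3.95, −5.04 and −3.69 in healthy samples and −3.54 to 0.75 with a median of −1.13 after DNBS, so that all 12 DNBS samples lay above all 4 healthy ones. It rose by 2.94 ± 0.62, or 7.70-fold (limma adjusted p = 0.0313). Cxcl5 was thus the 1 gene of these 4 in which the groups did not overlap.

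**Figure D2:**
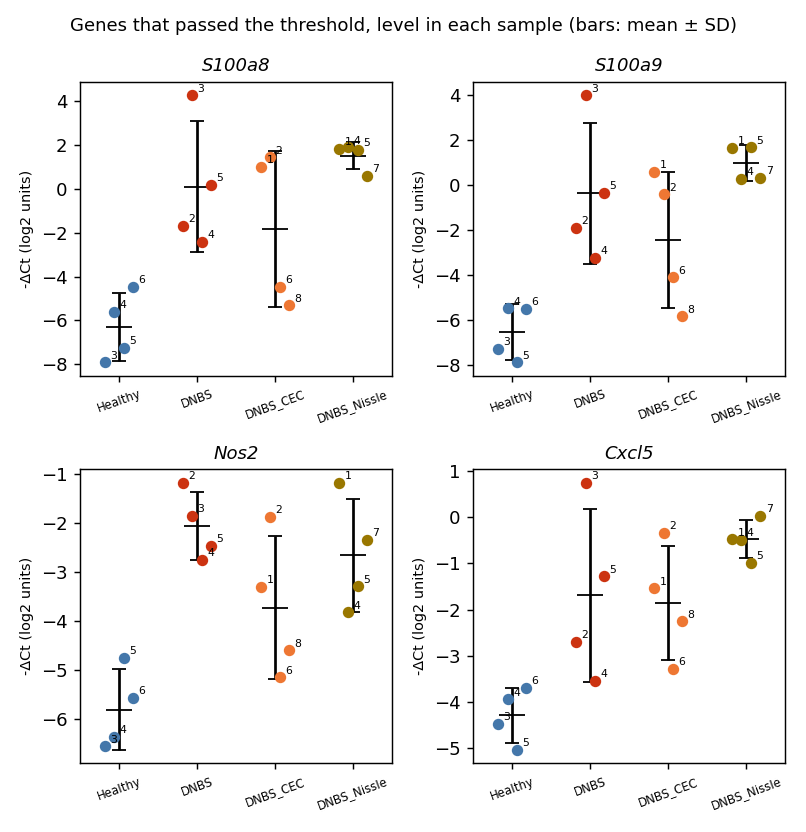
Levels of S100a8, S100a9, Nos2 and Cxcl5 in each of the 16 samples (y axes, −ΔCt in log2 units; numbers are the sample numbers of the labels; bars are mean ± SD, n = 4 per group). DNBS_CEC samples 6 and 8 sit near the healthy samples in S100a8 (−4.48 and −5.31), while Cxcl5 separates all DNBS samples from the healthy ones.

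The calls rested on few healthy samples. Without Healthy sample 3 and DNBS_Nissle sample 1 none of 461 genes passed (lowest limma adjusted p = 0.145), although S100a8 was still higher by 5.66, S100a9 by 5.59, Nos2 by 2.58 and Cxcl5 by 2.88; leaving out Healthy 3, 4 or 6 or DNBS sample 5 alone also ended every call, and without Healthy 5, DNBS_Nissle 1 or DNBS_Nissle 4 alone Nos2 was the 1 gene that passed. In none of the leave-one-out fits did the sign of the 4 genes turn, and their differences ranged from 5.70 to 6.85 for S100a8, 5.43 to 6.29 for S100a9, 2.74 to 3.34 for Nos2 and 2.67 to 3.15 for Cxcl5.

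Other genes that neutrophils carry had large differences that did not pass. Lactotransferrin (Ltf), an iron-binding protein of neutrophil granules, had levels of −7.78, −7.86, −6.60 and −7.96 in healthy samples and −7.04 to −2.01 with a median of −3.82 in the 11 DNBS samples measured. It was higher by 3.38 ± 0.82 (limma adjusted p = 0.0617). The chitinase-like lectin Chi3l3, now Chil3 and named here after its values were seen, was higher by 4.14 ± 1.15 (limma adjusted p = 0.0941), and its DNBS samples spanned from −9.46 to 0.29, the lowest of them under every healthy sample. The list of granule and calprotectin genes held 8 panel genes, and all 4 that could be tested were higher, 2 of them past the threshold, with a median of 5.03 against −0.09 over all tested genes. This list was chosen with earlier results of these data known and holds S100a8 and S100a9 themselves, so its median is a description and no separate support. Of its other members, cathelicidin (Camp), also singled out after its values were seen, was detected in 8 of 12 DNBS and in 0 of 4 healthy samples and Mmp25 in 11 of 12 and 1 of 3, while the early granule proteases Ela2 and Prtn3 were detected in no sample. The mean level over the 4 tested genes lay between −7.66 and −6.27 in healthy samples, −3.77 and 1.63 in DNBS, −6.86 and −0.87 in DNBS_CEC, and −1.64 and −0.15 in DNBS_Nissle. In DNBS_Nissle sample 1, which gave the −0.15, the Ltf value in this mean was filled in. In bulk mucosa, more cells of a type and more RNA per cell cannot be told apart.

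Among the other members of the list of neutrophil chemokines and receptors, Cxcl1 was higher by 2.30 ± 0.87 (limma adjusted p = 0.278) and the platelet-derived chemokine Ppbp by 1.32 ± 0.73 (0.418), while the growth factor Csf3 was at −0.93 ± 0.96 (0.704). Of 7 tested members 5 were higher and 1, Cxcl5, passed; the median was 1.06. The formyl peptide receptor Fpr1 was at 1.06 ± 0.57, and at 0.64 without Healthy sample 5. Cxcl1 had levels of −6.23, −7.30 and −6.00 in the 3 healthy samples measured, and 10 of 12 DNBS samples lay above these.

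Il1b, the cytokine that heads acute inflammation, had levels of −7.66, −6.47, −6.21 and −4.83 in healthy samples and of −5.87 to 1.01 with a median of −3.64 after DNBS. Its difference was 3.35 ± 0.86, or 10.2-fold (limma adjusted p = 0.0758). DNBS sample 3 was far above the other samples of its arm, at 1.01 against −4.00 to −3.82. All 9 tested genes of the list of acute cytokines and enzymes were higher, with a median of 0.70, but Nos2 alone passed. Tnf was at 1.20 ± 0.59 (0.347), the prostaglandin-forming enzyme Ptgs2 at 1.34 ± 0.86 (0.51), the epithelial and stromal alarmin Il33 at 0.69 ± 0.34 (0.347) and the interleukin 1 antagonist Il1rn at 0.48 ± 0.25 (0.375). The monocyte chemokines Ccl2, Ccl7 and Ccl4 differed by 1.37 ± 0.61, 1.95 ± 0.79 and 2.09 ± 0.87, yet 9 of the 15 tested CC chemokines were lower, and the list's median was −0.23. Tgfb1 (0.27 ± 0.31) and the endotoxin receptor Tlr4 (0.15 ± 0.40) did not pass either, and the sign of Tlr4 turned to −0.10 without Healthy sample 3 and DNBS_Nissle sample 1.

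Several genes of hypoxia, haem and matrix responses were also higher without passing. Hif1a, the oxygen-regulated transcription factor, had levels of −2.82, −2.21, −2.12 and −1.76 in healthy samples and of −1.85 to 0.10 with a median of −1.11 after DNBS. It was higher by 1.24 ± 0.30 (limma adjusted p = 0.0606), and 11 of 12 DNBS samples lay above every healthy sample. The matrix cytokine osteopontin (Spp1) was higher by 2.49 ± 0.67 (0.0927), the haem-degrading enzyme Hmox1 by 1.36 ± 0.43 (0.168) and the acute-phase protein Saa3, also named after its values were seen, by 2.64 ± 1.10 (0.278). Saa3 had the widest healthy range of these, −5.55, 0.43, −5.02 and −1.97. In the whole list 7 of 10 tested genes were higher, none of them past the threshold, and the median was 0.47. The activin subunits Inhbb and Inhba, which make dimeric growth factors of the transforming growth factor beta family, were at 1.44 ± 0.38 (0.0927) and 1.30 ± 0.46 (0.242; 0.86 without Healthy sample 4), and the bone morphogenetic protein Bmp8b at 1.72 ± 0.50 (0.119), although 12 of the 19 tested genes of that family were lower.

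Genes of adhesion and myeloid cells were mostly higher without passing. P-selectin (Selp), which lets leukocytes roll on activated endothelium, was higher by 1.92 ± 0.63 (limma adjusted p = 0.184), with 9 of 12 DNBS samples above the healthy range. The integrin subunits Itgam and Itgb2 were at 1.31 ± 0.60 (0.314) and 0.79 ± 0.37 (0.319). The myeloid marker with the lowest p, the chemokine receptor Cx3cr1, was lower, at −0.77 ± 0.35 (0.305). The monocyte receptor Ccr2 was also lower, at −0.48 ± 0.58 (0.763). All 4 tested genes of the adhesion list were higher, with a median of 1.05, and so were 10 of 14 myeloid markers, whose median was 0.30. By arm the myeloid median was 0.57 in DNBS, −0.16 in DNBS_CEC and 0.47 in DNBS_Nissle. No gene of either list passed. The leukotriene cofactor Alox5ap was at 1.20 ± 0.55 (0.309), and DNBS sample 3 again led, at −0.88 against −4.27 to −3.76 in the other samples of its arm.

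Among the genes that were lower, none passed. In 9 of 469 genes (1.92%) the groups did not overlap, 5 of them lower (1.07%) and 4 higher (0.853%). The lower ones were Il22ra2, Il15, P2ry1, Il17rb and Casp1, the last named after its values were seen. Il22ra2, a soluble receptor that binds interleukin 22 and blocks it, had levels of −5.13, −4.61, −5.25 and −4.70 in healthy samples and of −8.40 to −5.51 with a median of −6.58 after DNBS. Its difference was −1.67 ± 0.39, which is 3.19-fold lower (limma adjusted p = 0.0557). Il15, a cytokine that maintains intraepithelial lymphocytes and natural killer cells, had levels of −3.52, −2.99, −2.98 and −2.93 in healthy samples and of −5.30 to −3.73 with a median of −4.15 after DNBS. It was 2.17-fold lower, at −1.12 ± 0.26 (limma adjusted p = 0.0557). Neither passed, yet every DNBS sample lay below every healthy sample in both.

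Both genes crossed the threshold under some settings. They passed with the 3 most stable reference genes, with the global mean of the genes and when the DNBS_CEC arm was left out, where their adjusted p-values were 0.00823 for Il22ra2 and 0.0197 for Il15. Without Healthy sample 3 and DNBS_Nissle sample 1 the differences were −1.79 and −1.27 (adjusted p = 0.145 for both).

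The purinergic receptor P2ry1, which relaxes intestinal muscle when it binds ADP and related nucleotides, was the most even healthy group of these, from −5.62 to −5.50, with −7.24 to −5.80 after DNBS. Its difference was −0.87 ± 0.26 (limma adjusted p = 0.14). Il17rb, part of the receptor for interleukin 25, was at −6.59, −6.34 and −6.73 in the 3 healthy samples measured and at −9.33 to −6.84 after DNBS, a difference of −1.23 ± 0.44 (0.242). The inflammasome protease Casp1 differed by −0.50 ± 0.22 (0.305). Before the reference was subtracted, its Ct ran from 18.65 to 19.16 in healthy and from 18.39 to 19.50 in DNBS samples, so its separation rests on the reference. The Ct ranges of Il22ra2, Il15, P2ry1 and Il17rb before subtraction overlapped too, though only in part. The interferon-induced transcription factor Irf7 was at −0.92 ± 0.26 (0.0941), with 11 of 12 DNBS samples below the healthy range, and the apolipoprotein Apoa1, made by enterocytes, at −1.91 ± 0.58 (0.14), also with 11 of 12. Ltbp4, which stores latent transforming growth factor beta in the matrix, was at −1.13 ± 0.36 (0.184).

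**Figure D3:**
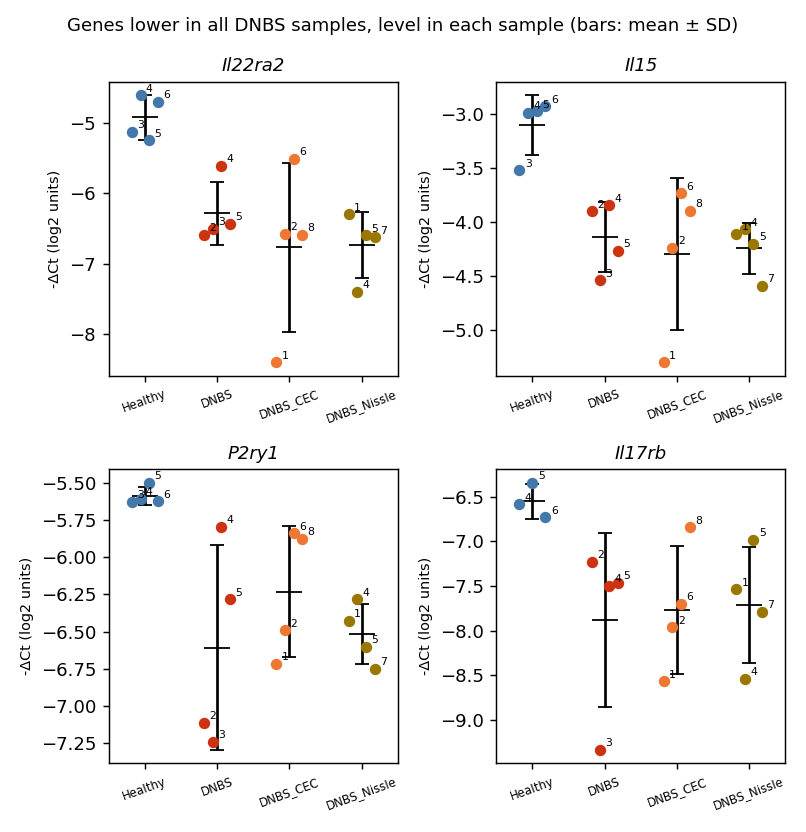
Levels of Il22ra2, Il15, P2ry1 and Il17rb in each sample (y axes, −ΔCt in log2 units; numbers are sample numbers; bars are mean ± SD over the samples measured). In each of these genes every DNBS sample lies below every healthy sample; the value of Healthy sample 3 for Il17rb was filled in and is left out.

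The other non-overlapping genes that were higher, besides Cxcl5, were Il4ra, Myd88 and Gusb. Il4ra, the receptor chain shared by interleukins 4 and 13, depended on 1 sample for its size. Healthy sample 3 was at the detection limit (−8.85) and the other healthy samples at −2.54 to −2.42, against −2.30 to −0.80 after DNBS. The difference of 2.34 ± 0.86 (limma adjusted p = 0.247) was 0.75 without that sample. The Toll-like receptor adaptor Myd88 was at 0.62 ± 0.23 (0.242), while the 26 tested genes of its pathway split evenly, 13 higher and 13 lower, with a median of 0.04. Gusb, named after its values were seen, is itself 1 of the reference genes and was higher by 0.39 ± 0.16 (0.278).

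The differences varied in size between arms, and no gene passed a test among them. In a limma F test over the 3 arms 0 of 469 genes passed (lowest adjusted p = 0.866), and 11 genes (2.35%) had an unadjusted p under 0.05. Each arm was set against the same 4 healthy samples. S100a8 was higher by 6.40 in DNBS, 4.47 in DNBS_CEC and 7.83 in DNBS_Nissle, S100a9 by 6.15, 4.09 and 7.49, and Nos2 by 3.75, 2.08 and 3.15 in the same order. DNBS_CEC had the smallest of the 3 values in each of these genes. Cxcl5 was nearer to even, at 2.59, 2.43 and 3.81, and Il15 nearly the same in each arm, at −1.03, −1.19 and −1.14. A p that misses the threshold does not show that the arms were alike: the SE of a single arm's difference was larger than that of the pooled value.

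The genes with the lowest unadjusted p of the limma F test among arms were the eosinophil chemokine Ccl24 (0.00185), Spp1 (0.00463), the chemokine receptor Ccr1 (0.00669), the apolipoprotein Apoe (0.014) and Selp (0.0189). Spp1 differed from healthy by 2.75 in DNBS, 0.75 in DNBS_CEC and 3.97 in DNBS_Nissle, and Selp by 1.68, 0.82 and 3.27. For Ccl24 the pooled value of −0.16 ± 0.38 averaged arms of opposite sign, −0.39, −1.07 and 0.98. For Apoe, too, a pooled −0.02 ± 0.35 averaged 0.81, −0.31 and −0.55. The median within-group SD over 372 genes was 0.664 in DNBS_CEC and 0.695 in DNBS_Nissle against 0.441 in healthy and 0.459 in DNBS samples; this difference in spread was not tested.

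**Figure D4:**
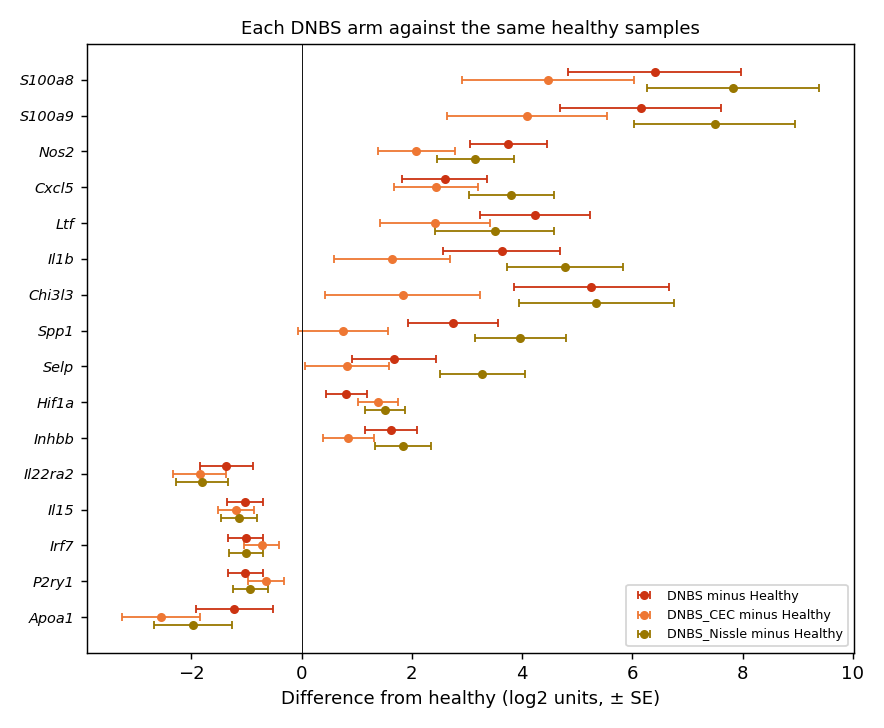
Difference of each DNBS arm from the same 4 healthy samples for 16 genes (x axis, log2 units; points are model estimates, bars ± SE; n = 4 per arm). S100a8 lies at 6.40, 4.47 and 7.83 in the 3 arms, whereas Il15 lies at −1.03, −1.19 and −1.14.

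Leaving out single arms changed the calls. Without DNBS_CEC 11 genes were higher past the threshold and 3 lower; among them were Ltf, Chi3l3, Il1b, Spp1, Inhbb, Bmp8b and Hmox1 (higher) and Il22ra2, Il15 and Ltbp4 (lower). Without DNBS_Nissle none passed (lowest adjusted p = 0.115). Without the DNBS arm S100a8, S100a9 and Cxcl5 passed, and Nos2 did not (adjusted p = 0.11).

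Genes read after DNBS but hardly in healthy mucosa have no measured difference and were compared by detection. Of 69 genes that were detected but could not be tested by level, 11 (15.9%) were detected in at least 9 of 12 DNBS and at most 1 healthy sample, and none the other way. None passed after adjustment (two-sided Fisher's exact test, lowest adjusted p = 0.284). With filled-in values counted, more assays were detected in DNBS samples on the whole panel. Cxcl3, a further neutrophil chemokine, was detected in 12 of 12 DNBS and 1 of 4 healthy samples. That healthy sample, number 6, was at −5.09, and the DNBS samples ran from −7.95 through −4.70 to −0.29, at least 14.98-fold higher on average. The cytokine Il6 was detected in 11 of 11 measured DNBS samples and 1 of 3 healthy ones, with a median of −5.65 after DNBS and the highest level, −1.19, in DNBS_Nissle sample 1. Its 3 assays disagreed in size: with the Ct values as deposited 2 differed by about 3.99 and the other by 1.81 on the log2 scale.

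The interleukin 1 family was represented by Il1a (11 of 12 against 1 of 3) and by Il1f9, an epithelial member now called Il36g (9 of 12 against 0 of 4). Among the others were the soluble pattern receptor Ptx3 (9 of 12 against 0 of 4), the adenosine receptor Adora3 (10 of 12 against 0 of 4), the cytokine Clcf1 (11 of 12 against 1 of 4), the gut hormone Ghrl (11 of 12 against 1 of 4), the neutrophil protease Mmp25 and the oxidised lipoprotein receptor Olr1 (each 11 of 12 against 1 of 3). Several of these sat close to the limit even where detected: the mean level of Clcf1 was −8.57 and of Ghrl −8.68, against −6.08 for Il1a. When any Ct under 40 counted as detected, 1 difference was left.

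Of the other readouts usual in colitis, Cxcl2 was detected in 12 of 12 DNBS and 2 of 4 healthy samples, with mean levels of −3.82 and −8.52. Il17a was detected in 7 of 11 against 0 of 3, Il22 in 6 of 12 against 0 of 3 and Ifng in 8 of 12 against 2 of 4. The assay named for Il22 also names its paralogue Iltifb, so these cannot be told apart. Il10 was detected in none of the 16 samples. Also singled out after its values were seen, the myeloid receptor Trem1 was detected in 12 of 12 against 2 of 4 samples, with mean levels of −6.00 and −8.56, and the enterocyte apolipoprotein Apoa4 went the other way, in 4 of 12 against 4 of 4, with means of −9.15 and −7.20.

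Lists of receptors and of several other cell types had negative medians. In the list of chemokine receptors 12 of 18 genes were lower, with a median of −0.53. Some of these assays, among them Cxcr7, Ccr3 and Ccr8, shared a sample pattern with the interferon gene Ifna2. Cxcr7 had a Ct of 24.31, 23.73, 26.91 and 24.61 in healthy samples and 28, the limit, in DNBS_Nissle sample 1. Ifna2 was at 24.14, 23.31, 26.26 and 23.93 in healthy samples and also at 28 in DNBS_Nissle sample 1. What such assays share was not tested. In the type 3 list, which covers interleukins 17 and 22 and their receptors, 6 of 8 tested genes were lower, with a median of −0.64; the ligands Il17a and Il22 were read in DNBS samples alone, as given above. The epithelial and stromal list had 5 of 6 lower, with a median of −0.43, led by Il15; Krt8, named after its values were seen, was at −0.25 ± 0.48, and at −0.01 without DNBS_Nissle sample 4. Of the 3 B cell markers 2 were lower and 1 higher, with a median of −0.57: Cd180 was at −0.57, the adaptor Blnk at 0.24, and Cr2, a complement receptor, at −1.21 ± 0.42 (limma adjusted p = 0.242), and 8 of 11 measured DNBS samples lay below the healthy range. The T cell list was near 0, with 3 of 6 higher and a median of −0.05. Some of these medians were uneven between the arms DNBS, DNBS_CEC and DNBS_Nissle. They were −0.08, −0.73 and −0.61 for chemokine receptors and −0.27, −0.41 and −1.06 for the type 3 list. For B cell markers they were −0.43, −0.12 and −1.15. The epithelial and stromal list was more even, at −0.42, −0.35 and −0.50. No member of these lists passed the threshold.

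In the remaining lists no member passed either. In the interferon and type 1 list 6 of 13 tested genes were higher (median −0.11), in the type 2 list 6 of 11 (0.17), in the tumour necrosis factor superfamily 12 of 24 (−0.01) and in the prostaglandin and leukotriene pathway 5 of 9 (0.20). Phospholipases had 2 of 4 higher (0.44), lipoproteins and clusterin 2 of 4 (0.44), MAP kinases 3 of 7 and the markers of mast cells, eosinophils and platelets 1 of 4 (−0.49).

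Adipocyte genes had the lowest list median, −1.33, with 5 of 5 tested members lower and none past the threshold. Adiponectin (Adipoq), a hormone of fat cells, had levels of −3.98 to −0.93 in the 4 healthy samples and of −7.10 to −2.49 with a median of −4.21 after DNBS, a difference of −1.70 ± 0.73 (limma adjusted p = 0.286). Resistin (Retn) was at −1.50 ± 0.64 (0.283), adipsin (Cfd) at −1.33 ± 0.67 (0.357) and, both named after their values were seen, Fabp4 at −0.50 ± 0.45 and Pparg at −0.49 ± 0.28. The mean level of the 5 genes ran from −3.27 to −0.53 in healthy samples, −3.22 to −1.70 in DNBS, −4.29 to −1.98 in DNBS_CEC and −4.09 to −3.06 in DNBS_Nissle. In DNBS_Nissle sample 1, which gave the −4.09, the Cfd value in this mean was filled in. Healthy sample 4 was highest in Adipoq, Retn and Cfd. Without it Adipoq was at −1.13, Retn at −0.80, Cfd at −0.68, Fabp4 at −0.09 and Pparg at −0.44, all still lower. Leptin (Lep) was detected in 3 of 4 healthy and 5 of 9 DNBS samples. The part of fat, B cells or epithelium in the other differences was not tested.

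**Figure D5:**
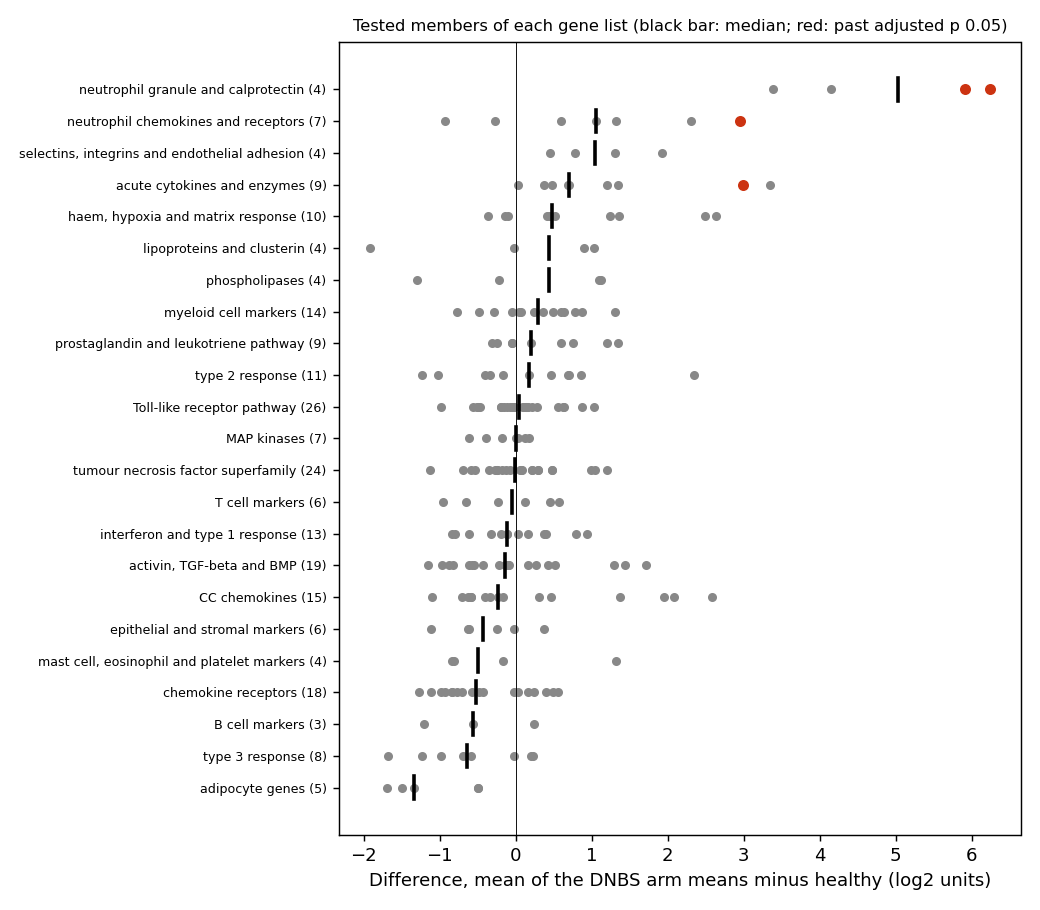
Differences of the tested members of each gene list (x axis, log2 units; each point is a gene, the black bar the list's median, the number of tested genes in brackets; red points passed the adjusted threshold). The granule and calprotectin genes stand at the top with a median of 5.03 and the adipocyte genes at the bottom with −1.33. No test was made of any list, and the lists were chosen with earlier results of these data known.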

How the data were processed

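Total RNA of colonic mucosa was measured on the TaqMan OpenArray Mouse Inflammation Panel, per the labels' protocols. The authors deposited raw Ct values, a unit of its own with no normalization; 40 stands for no amplification. Thresholding software is not given in the sources used here. Entries within 2e-06 of the average of that group's remaining samples (194 values, 1.87%) were taken as filled-in gaps. In the levels, detection and tests of single genes they were set to missing, except 4 in reference assays. They were kept in the counts of detected assays, the median Ct and the mean levels over the genes of a list. The digit pair 40 was lost from decimals and assay names; 532 values with 4 or fewer decimals were kept. Levels were set against 11 endogenous controls (17 assays), including Tbp, Ppia, Polr2a, Pgk1, Ipo8, Hprt1, Gusb, Gapdh and Actb, with within-group SD of 0.27 to 0.57 cycles; Ywhaz (3.47) and Rplp2 (1.01) were left out, and some reference genes and 1 detection difference are not reported here by name. Assays of 1 gene detected in the most samples were averaged. How many molecules a Ct stands for is unknown.

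A gene was tested when detected in at least 3 of 4 healthy and 9 of 12 DNBS samples, with limma 3.58.1 (lmFit, eBayes; R 4.3.3) on 4 group means (12 residual degrees of freedom, fewer for 97 genes with missing values), contrasting the mean of the arm means with healthy, and Benjamini-Hochberg adjustment over all 469 genes. Arms were compared with the moderated F test on 2 degrees of freedom, and detection with Fisher's exact test. The script was tested on simulated data. The members, gene lists and reference genes were chosen with earlier results of these data known. Genes named are those past the threshold, the lower genes, arm differences and list members with the lowest p (3 a list), detection differences and fixed colitis readouts. Alternatives covered the reference, the Ct limit, filled-in values, the model, arms and single samples.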

Additional observations from a re-analysis of the deposited data

Results flagged for a closer look

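Over 375 groups of 4 samples in 100 genes, 31 held a sample that stood far from the others of its group, a gap that chance gives in about 1 in 20 groups of freely measured values. That rate does not hold where the others were set to the limit of Ct 28, as for Camp in DNBS_CEC and Cxcl3 in healthy samples. All values are levels (−ΔCt, log2 scale), and the causes were not tested. DNBS sample 3 held 9 of them. It was far above its arm in Il1b (1.01, others −4.00 to −3.82), Alox5ap (−0.88), Cxcl1 (−2.02), Cxcl3 (−0.29), Ccr1 (−2.61), Inhba (−4.81) and the lipoprotein receptor Olr1 (−3.88), and below it in Il17rb (−9.33, others −7.50 to −7.23) and Casp1 (−0.73). Without this sample Il1b joined the genes that passed.

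DNBS_CEC sample 1 stood apart in Camp (−5.55, others −9.66 to −9.34), Casp1 (−1.24), the mucosal chemokine Ccl28 (−2.87), the early response gene Fos (−1.84) and the T cell costimulator Icos (−9.15). DNBS_CEC sample 2 stood apart in Apoa1 (−9.54, others −6.84 to −6.53) and Fabp4 (−1.98). In the DNBS arm, sample 4 was above the others in the gut chemokine Ccl25 (−5.43), Il22 (−6.80) and Il22ra2 (−5.61), and sample 2 was below them in Ghrl (−9.37).

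Among DNBS_Nissle samples, sample 1 was high in Il22 (−5.53, others −9.48 to −8.95), sample 4 low in Krt8 (0.37, others 3.01 to 3.43), sample 5 high in the chemokine receptor Xcr1 (−4.43) and sample 7 low in S100a8 (0.59, others 1.78 to 1.89). Among healthy samples, sample 3 was low in Il4ra (−8.85), Il15 (−3.52) and the growth factor Kitl (−1.58), sample 5 was high in Ltf (−6.60) and P2ry1 (−5.50), and sample 6 was high in Cxcl3 (−5.09, others −9.24 to −8.85) and low in the fractalkine receptor Cx3cr1 (−4.64).

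Only tested genes chosen for naming were searched for arms on opposite sides of the healthy mean. In 2 of them every sample of one arm moved away from the healthy mean in the opposite direction to every sample of another. Both, Ccl24 and Ccr1, had been named for a low p in the limma F test among arms, so this is no separate observation. Ccl24 was higher by 2.05 in DNBS_Nissle than in DNBS_CEC. Ccr1 was at −1.10 in DNBS_CEC relative to DNBS and at 1.04 in DNBS_Nissle relative to DNBS_CEC. These pairwise differences were not tested; in the limma F test over all 3 arms neither passed (lowest adjusted p of any gene = 0.866).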

How the results depend on the processing

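The direction of S100a8, S100a9, Nos2 and Cxcl5 held under every alternative in which they were tested (S100a9 was not tested at a Ct limit of 26), but their calls did not. Against 4 genes higher, 7 passed with quantile normalization and with filled-in values kept, 11 with group-specific variances and without the DNBS_CEC arm, and 0 without the DNBS_Nissle arm and without Healthy sample 3 and DNBS_Nissle sample 1. Against 0 genes lower, 2 passed with the 3 most stable reference genes, the global mean, values above the limit missing, filled-in values kept and arms not separated, 3 with quantile normalization, a Ct limit of 26 and no DNBS_CEC arm, 1 with any Ct under 40 and with no filter on detection, and 5 with group-specific variances. Leaving out single samples gave 0 to 7 higher, 0 to 4 lower, 7 to 13 genes with no overlap (against 9) and 9 to 18 detection differences (against 11), the last count highest without Healthy sample 6. Genes with no overlap numbered 5 with Gapdh alone and 23 without the DNBS_CEC arm, and 1 detection difference was left with any Ct under 40. No gene passed among the arms in any setting. The cause of these changes was not tested, other than that dropping samples leaves fewer values.

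The sign turned in 4 genes near 0. Apoe, at −0.02, was at 0.085 with 13 reference genes, 0.056 with 15, 0.074 with Gapdh, 0.13 without DNBS_CEC and 0.25 without DNBS_Nissle, and from −0.18 to 0.13 without single samples. Tlr4 was at −0.10 without both samples with most filled-in values and from −0.048 to 0.33 without single samples, and Ccl24 at 0.29 without DNBS_CEC and from −0.30 to 0.014 without single samples. With the sample number as a replicate block 0 genes were higher past the threshold, and Tlr4 was at −0.079, Ccl24 at 0.064 and Fos at 0.071. Over 10 same-numbered pairs the correlation of deviations ran from −0.516 to 0.449, and 4 pairs exceeded 0.1. Differently numbered pairs were not set beside them, so these values cannot tell whether the numbers pair the samples.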
